A study of Homo sapiens with 4 samples.

Results

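A group of 10 genes of the NRF2 antioxidant pathway, heme oxygenase and ferritin were followed in H1299 cells after methylparaben. They were taken by symbol from the deposited tables, which list 58735 genes, and comprise NFE2L2, KEAP1, HMOX1, FTL, FTH1, GCLC, GCLM, TXNRD1, SRXN1 and NQO1, with 92 of the 206601 listed transcripts. H1299 is an established human lung cancer line. Cells given methylparaben, a preservative of the paraben family, at 0.5 mM for 48 h gave 2 libraries. Control cells labelled with ethanol gave the other 2, of the same line and with no genetic change named. The labels give no ethanol amount and no time for the control cells. RNA was selected with poly(A) beads. The labels do not say whether the paired libraries are separate cultures, so p-values here describe the spread between these libraries alone, and that spread may be technical.

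NRF2, encoded by NFE2L2, is a transcription factor that KEAP1 holds in the cytoplasm and passes to the proteasome. Oxidants and electrophiles that modify KEAP1 cysteines let NRF2 reach the nucleus, where it pairs with small MAF proteins and binds antioxidant response elements near genes for glutathione synthesis, thioredoxin recycling, quinone reduction, heme breakdown and iron storage. HMOX1 opens the heme ring and releases iron, and FTL and FTH1 are the light and heavy chains of the ferritin shell that stores it.

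Libraries held 2068486 to 3760982 counts. Log2 CPM (counts per 1e6 reads after TMM scaling, a trimmed-mean method) correlated across genes at 0.957 between the methylparaben libraries and 0.963 between the ethanol libraries, and at 0.816 to 0.853 between groups. The epithelial markers KRT8 and KRT18 were read, whereas EPCAM, CDH1 and KRT19 had 0 counts in every library. All 5 mesenchymal markers had reads, with summed levels of 571 to 637 CPM in methylparaben libraries against 1344 to 1839 CPM in ethanol libraries. Nearly all of that sum was AXL, at 599 and 534 CPM with methylparaben against 1253 and 1767 CPM with ethanol, while CDH2 had 1 read in all, and ZEB1 had 3 reads with methylparaben and 1 with ethanol. The part of these markers in the results below was not tested. The 5 lung, 6 blood and 3 liver markers had 0 counts throughout, and 2 of 5 neuroendocrine markers had reads, summing to 1.90 to 6.28 CPM in methylparaben libraries and 0 to 2.13 CPM in ethanol libraries.

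The response elements of the pathway share a core, TGACNNNGC, which was searched on both strands of the RefSeq promoter windows (GRCh38.p14, 250 bases before to 50 bases after a start site). Windows were found for 8 of the 10 genes, 11 windows in all. A match lay in 4 of these 11 windows, which belong to GCLM, KEAP1 and TXNRD1, against 13.3% of all 35116 windows. The letters were not in the windows of NFE2L2, FTL, GCLC, SRXN1 and NQO1, nor in the other KEAP1 window. HMOX1 and FTH1 had no window, and bases beyond the windows were not searched. The matches are shown because they are the kind of sequence through which NRF2 is known to act. They are printed on the gene's strand with the core in capitals, and a core that reads GCNNNGTCA lies on the opposite strand. That of GCLM (chr1:93909444-93909476, minus strand) began 34 bases before the start, that of KEAP1 (chr19:10502782-10502814, minus strand) 31 bases before, and those of TXNRD1 in its upstream window (chr12:104215668-104215700, plus strand) and its downstream window (chr12:104286918-104286950, plus strand) 99 and 102 bases before. A further match of KEAP1 began 54 bases before its start and a further one of TXNRD1 8 bases before.
GCLM: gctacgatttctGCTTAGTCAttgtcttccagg
KEAP1: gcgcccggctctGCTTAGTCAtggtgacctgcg
TXNRD1 upstream: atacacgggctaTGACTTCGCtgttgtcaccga
TXNRD1 downstream: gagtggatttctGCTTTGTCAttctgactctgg
The GCLM and KEAP1 matches hold the same core. A match is a description of letters and was not tested as a binding site.

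How much of each gene could be read differed widely. The tables count reads per transcript, and none of the 70749 transcripts without a base of its own had a read in any library, so a base that lies in a single annotated transcript is called countable here. The term rests on annotated exons and not on sequence, so reads on a countable base may still match a copy elsewhere in the genome. All 878 exonic bases of FTL were countable, as were 59.4% of those of HMOX1, 49.6% of GCLC, 41.8% of GCLM and 30.9% of NFE2L2. The share was 22.9% for TXNRD1, 19.2% for NQO1, 19.1% for KEAP1, 15% for SRXN1 and 10.1% for FTH1. The longest coding transcript of TXNRD1 had 0 countable bases, that of FTH1 had 27 and that of GCLC had 28. Counts for these genes therefore describe their countable bases and not the whole mRNA. Over all transcripts FTH1 had 205 countable bases, whereas TXNRD1 had 1534 and GCLC 4285, more than the 1429 of HMOX1. Why some of these genes had few reads was not tested.

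**Figure D1:**
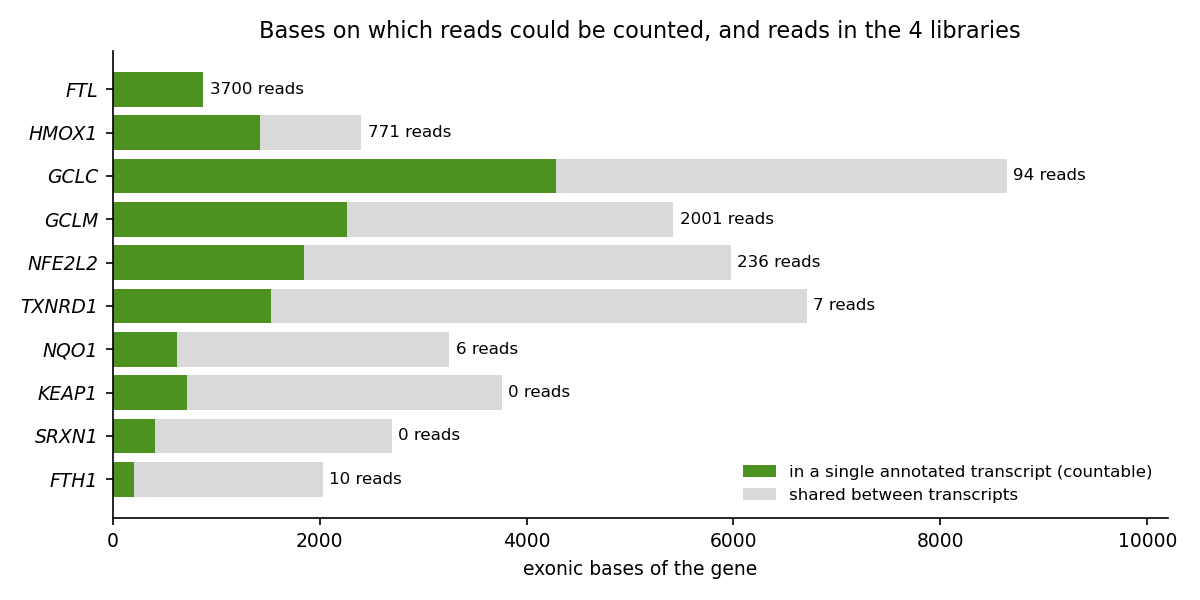
Exonic bases of each gene (bars, in bases), split into bases in a single annotated transcript and bases shared between transcripts, with the reads counted in the 4 libraries together beside each bar. FTL, countable over all 878 bases, has 3700 reads, and the 5 genes with the smallest countable share have 10 reads or fewer each.

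In methylparaben-treated cells the ferritin light chain and heme oxygenase 1 mRNAs were 16-fold and 12.6-fold higher with all 4 libraries, and 3.82-fold and 6.09-fold higher without methylparaben library 2. NFE2L2 and GCLC were several-fold higher and GCLM was about 1.5-fold higher. NFE2L2, HMOX1, FTL and GCLM reached the filter on low counts (4.39 CPM by library size, in 2 libraries) within the ethanol group as well as the methylparaben group, and these 4 rose (edgeR quasi-likelihood test, Benjamini-Hochberg adjusted p under 0.05, over 8055 genes). Among all genes tested, 18.5% rose. GCLC also passed the test but reached the filter only through the methylparaben libraries, where it was high, so its call is not counted with the 4. Both methylparaben libraries were above both ethanol libraries for each of these 4 genes and for GCLC, as they were for 35.5% of all genes tested. The other 5 genes had 0 to 10 reads in all and were not tested. In bulk RNA a change in the number of cells that express a gene and a change in RNA per cell cannot be told apart.

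**Figure D2:**
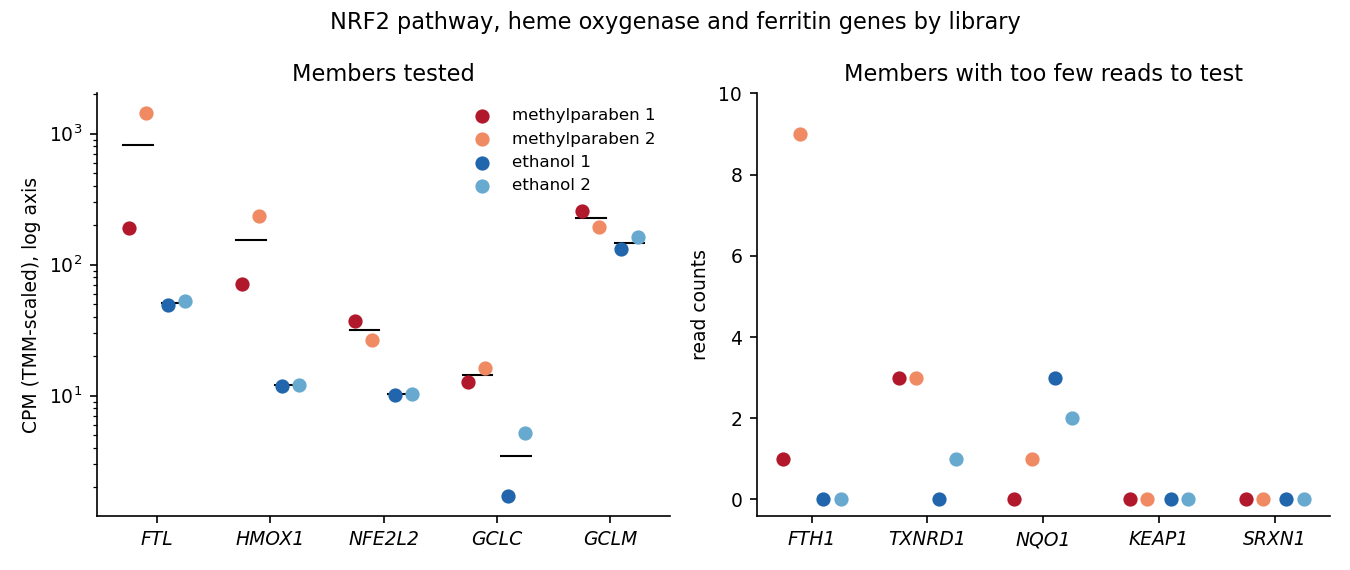
Level of each gene in each library, methylparaben left of ethanol. Left, CPM on a log axis for the 5 tested genes with a line at each group's mean. Right, read counts of the 5 genes with too few reads to test. FTL and HMOX1 stand highest in methylparaben library 2, whereas the methylparaben points of NFE2L2, GCLC and GCLM lie close together and the ethanol points of GCLC are apart, at 1.70 and 5.19 CPM.

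NFE2L2 (ENSG00000116044.15, chromosome 2, 177227595 to 177392697, GRCh38, minus strand) had 37.3 and 26.7 CPM in methylparaben libraries 1 and 2, against 10.2 and 10.4 CPM in ethanol libraries 1 and 2. Both treated libraries were above both controls, and the ethanol pair was nearly equal. The group means were 32.0 ± 7.49 CPM with methylparaben and 10.3 ± 0.128 CPM with ethanol (SD, n = 2 each), a log2 fold change of 1.64 ± 0.35 (SE; edgeR adjusted p = 0.00570). Without methylparaben library 1 the log2 fold change was 1.36, and without ethanol library 1 it was 1.60. Each of these fits holds 1 library in a group, whose spread is then not in the test.

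Fitted as single transcripts, 6 transcripts of the 10 genes had enough reads to test and 4 rose (HMOX1-201, FTL-201, GCLM-201 and NFE2L2-204), where 20.3% of the 9167 transcripts tested rose. Without ethanol library 1 the count was 2. The reads of NFE2L2 fell on 3 of its 14 transcripts, with 79.7% on coding transcripts and 20.3% on a retained-intron transcript. NFE2L2-204, whose countable bases lie mostly in its 3' UTR, had 82 and 30 counts with methylparaben against 13 and 13 with ethanol, and rose (log2 fold change 1.75 ± 0.44, edgeR adjusted p = 0.0108 over all transcripts tested). NFE2L2-209 had 31 and 12 counts with methylparaben against 0 and 7 with ethanol, at 2.25 ± 0.87 (edgeR adjusted p = 0.0640). The retained-intron transcript NFE2L2-212 had 24 and 9 counts with methylparaben against 11 and 4 with ethanol, at 0.80 ± 0.63 (edgeR adjusted p = 0.336). NFE2L2-201, the longest coding transcript, had 0 reads over 308 countable bases, all in its 5' UTR. Leaving out retained-intron transcripts gave NFE2L2 a log2 fold change of 1.98.

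KEAP1 (ENSG00000079999.13, chromosome 19, 10486120 to 10503741, minus strand), the adaptor that targets NRF2 for degradation, had 0 counts in all 4 libraries over 717 countable bases. Taking 3 counts as the limit, a count of 0 allows up to 0.816 and 1.57 CPM in methylparaben libraries 1 and 2, and 1.28 and 1.30 CPM in ethanol libraries 1 and 2, where limits cover counting error only. Of the countable bases of its longest coding transcript, 183 of 188 lie in the 5' UTR. No difference in KEAP1 was detectable over its countable bases at this depth.

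HMOX1 (ENSG00000100292.16, chromosome 22, 35380361 to 35394214, plus strand) had 71.8 and 236 CPM in methylparaben libraries 1 and 2, against 11.9 and 12.1 CPM in ethanol libraries 1 and 2. Every treated library was several times above the controls, but the treated pair differed 3.29-fold while the control pair was nearly equal. The means were 154 ± 116 CPM with methylparaben and 12 ± 0.149 CPM with ethanol (SD, n = 2 each), and the log2 fold change was 3.66 ± 0.51 (SE; edgeR adjusted p = 0.000709). Without methylparaben library 2 it was 2.61 and without methylparaben library 1 it was 4.28. Each of these fits holds 1 treated library, so the spread between treated libraries is not in its test. All but 1 of its 771 reads fell on the coding transcript HMOX1-201, of which 619 countable bases lie in the 3' UTR, 128 in the coding sequence and 99 in the 5' UTR.

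FTL (ENSG00000087086.14, chromosome 19, 48965301 to 48966878, plus strand) had 699 and 2764 counts in methylparaben libraries 1 and 2, or 190.2 and 1446.5 CPM, against 115 and 122 counts in ethanol libraries 1 and 2, or 48.9 and 52.8 CPM. The treated libraries differed from each other by 7.61-fold, yet the lower of them was still above both controls. The means were 818 ± 888 CPM with methylparaben and 50.9 ± 2.76 CPM with ethanol (SD, n = 2 each), and the log2 fold change was 4.0 ± 0.73 (SE; edgeR adjusted p = 0.00286). It was 1.93 without methylparaben library 2 and 4.82 without methylparaben library 1. Each of these fits holds 1 treated library, so the 7.61-fold spread between treated libraries is not in its test.

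The spread of FTL between the treated libraries was wide compared with other genes. Of 7090 tested genes averaging at least 5 CPM in the methylparaben libraries, 17, FTL included, were at least as unequal between them, which is 0.240%. For HMOX1 the share was 2.52%, and the median gene differed 1.24-fold. The 3 remaining tested genes were closer, at 1.40-fold for NFE2L2, 1.32-fold for GCLM and 1.27-fold for GCLC, with 32.5%, 39.8% and 46.5% of genes at least as unequal. NFE2L2 and GCLM were higher in methylparaben library 1, whereas HMOX1, FTL and GCLC were higher in methylparaben library 2. The 2 libraries share dose and time by their labels, and what separates them was not tested.

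Over 7317 other tested genes averaging at least 5 CPM, those most like HMOX1 across the 4 libraries were TRIB3, AP001107.4 and HES7, at distances of 0.40, 0.49 and 0.51 between mean-centred log2 CPM values. TRIB3, a pseudokinase gene induced in the integrated stress response, had 323 and 978 CPM in methylparaben libraries 1 and 2, against 74 and 54.5 CPM in ethanol libraries 1 and 2. Those most like FTL were RPS2P46, HMOX1 and TMED9, at distances of 0.27, 0.86 and 0.87. RPS2P46, a processed pseudogene of a ribosomal protein gene, had 118 and 889 CPM with methylparaben, against 37 and 37.7 CPM with ethanol, so that its treated libraries differed 7.56-fold. These likenesses rest on 4 libraries and describe them.

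FTH1 (ENSG00000167996.15, chromosome 11, 61959718 to 61967660, minus strand) had 1 and 9 counts in methylparaben libraries 1 and 2, against 0 and 0 in ethanol libraries 1 and 2. All 10 reads fell on FTH1-207, over 178 countable bases in its 5' UTR. Set against an assumed 3 counts over the ethanol group, the pooled methylparaben reads gave a ratio of 2.78. That ratio allows for counting error in the ethanol group alone, so it is not a lower limit. Without methylparaben library 2 a single count was left. Its main transcript was scarcely countable, but many processed pseudogenes carry copies of the FTH1 and FTL mRNAs elsewhere in the genome, and these copies were read heavily.

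Of 25 FTH1 copies listed, 12 had reads, 10 were tested, 8 rose and 0 fell, while 18.5% of all genes tested rose. Of the 8, FTH1P16 reached the filter on low counts only through the methylparaben libraries, where it was high, and the other 7 reached it within the ethanol group too. Summed over the 25 copies, there were 7579 and 5636 counts in methylparaben libraries 1 and 2, or 2062 and 2949.5 CPM, against 861 and 698 counts in ethanol libraries 1 and 2, or 366 and 302 CPM. Both treated sums were far above both control sums, 7.50-fold in the means, and the treated libraries differed 1.43-fold. FTH1P2 (chromosome 1, 228687415 to 228687826) had 829 and 1169 CPM with methylparaben against 152 and 98.7 CPM with ethanol, a log2 fold change of 2.99 ± 0.25 (edgeR adjusted p = 7.5e-05). FTH1P7 (chromosome 13, 22696023 to 22696574) had 458 and 541 CPM with methylparaben against 83.4 and 87.4 CPM with ethanol, at 2.55 ± 0.18 (edgeR adjusted p = 3.3e-05). FTH1P20 (chromosome 2, 180872867 to 180873414) had 223 and 461 CPM with methylparaben against 36.1 and 26 CPM with ethanol, at 3.45 ± 0.35 (edgeR adjusted p = 0.000152). These 3 had the most counts.

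The 2 tested FTH1 copies that did not pass were FTH1P10, at 1.78 ± 0.64 (edgeR adjusted p = 0.0522), and FTH1P3, at 1.40 ± 0.69 (edgeR adjusted p = 0.136), both named after their values were seen. FTH1P10 reached the filter only through the methylparaben libraries, and its value was 1.03 (edgeR adjusted p = 0.260) without ethanol library 1, 3.27 (edgeR adjusted p = 0.00565) without ethanol library 2 and 2.05 (edgeR adjusted p = 0.00755) without methylparaben library 2. FTH1P3 had 23.9 and 4.19 CPM with methylparaben against 5.95 and 5.19 CPM with ethanol, and its value was -0.42 without methylparaben library 1 and 2.13 (edgeR adjusted p = 0.00018) without methylparaben library 2. The call of FTH1P16 was lost without methylparaben library 2 (edgeR adjusted p = 0.0688) and without ethanol library 1 (edgeR adjusted p = 0.0662). Of 16 FTL copies 3 had reads and 1 was tested. That one, FTLP3, had 16.1 and 38.7 CPM with methylparaben against 1.70 and 6.06 CPM with ethanol, and passed the test (2.77 ± 0.62, edgeR adjusted p = 0.00729), although it reached the filter only through the methylparaben libraries, where it was high.

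**Figure D3:**
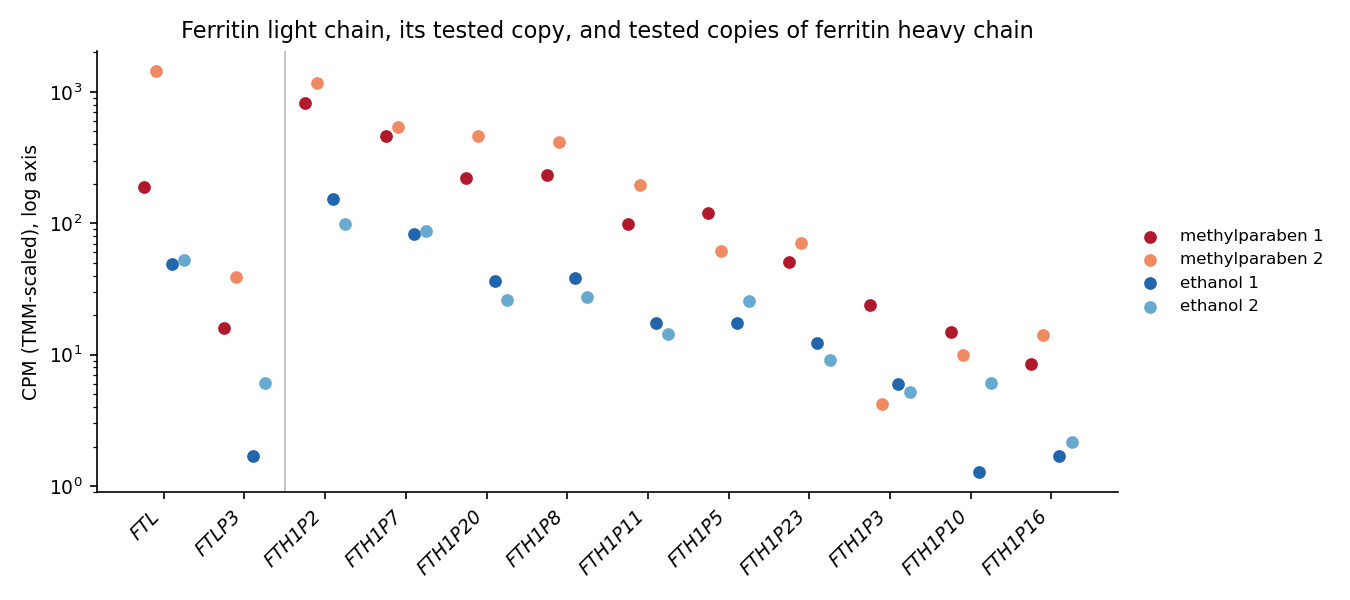
CPM on a log axis in each library for FTL, its tested copy FTLP3 and the 10 tested FTH1 copies in order of total counts, methylparaben left of ethanol. FTL has 190.2 and 1446.5 CPM in the methylparaben libraries, while the most read FTH1 copy, FTH1P2, has 829 and 1169 CPM there.

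The copies resemble their parent mRNA closely, so reads on them cannot be assigned with certainty. Against FTH1-201, the 12 FTH1 copies with reads were 95.9% to 98.1% identical over the aligned bases, with 10 mismatches and an identical run of 155 bases for FTH1P2. FTLP3 was 97.7% identical to FTL-201. A 60-base stretch of the FTH1 coding sequence, bases 476 to 535 of FTH1-201, is printed with the matching stretches of FTH1P2 and FTH1P20 to show how little separates them. Capitals mark bases of a copy that differ from FTH1 (GENCODE 29 transcripts, 5' to 3').
FTH1: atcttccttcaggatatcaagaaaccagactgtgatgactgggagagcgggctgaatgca
FTH1P2: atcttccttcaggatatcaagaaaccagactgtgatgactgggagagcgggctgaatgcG
FTH1P20: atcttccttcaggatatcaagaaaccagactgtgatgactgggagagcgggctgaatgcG
FTH1P2 and FTH1P20 each differ from FTH1 at 1 base here. No source used here gives the handling of reads that match several places. Whether the reads came from FTH1 or from its copies was not tested, nor was this tested for FTL and its copies.

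Glutathione is made from cysteine by glutamate-cysteine ligase, of which GCLC encodes the catalytic and GCLM the modifier subunit. GCLC (ENSG00000001084.12, chromosome 6, 53497341 to 53616970, minus strand) had 47 and 31 counts in methylparaben libraries 1 and 2, or 12.8 and 16.2 CPM, against 4 and 12 counts in ethanol libraries 1 and 2, or 1.70 and 5.19 CPM. The groups did not overlap, and the ethanol pair differed more than the methylparaben pair. The means were 14.5 ± 2.43 CPM with methylparaben and 3.45 ± 2.47 CPM with ethanol (SD, n = 2 each), and the log2 fold change was 2.05 ± 0.57 (SE; edgeR adjusted p = 0.0190). Without ethanol library 1 it was 1.44 (edgeR adjusted p = 0.117), and without ethanol library 2 it was 3.06.

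Most GCLC reads fell on GCLC-206, with 32 and 8 counts with methylparaben against 4 and 8 with ethanol, and on GCLC-209, with 13 and 19 counts with methylparaben against 0 and 2 with ethanol. Scaled for depth by the authors, GCLC-206 had 2.23 and 1.04 FPKM with methylparaben against 0.438 and 0.932 FPKM with ethanol, and GCLC-209 had 1.45 and 3.96 FPKM with methylparaben against 0 and 0.373 FPKM with ethanol. GCLC-206 had 8 counts in methylparaben library 2 and in ethanol library 2, so the order of these libraries on that scale rests on depth. The countable bases of GCLC-206 are 1198 bases annotated as 5' UTR, and those of GCLC-209 lie almost wholly in its 3' UTR. Neither transcript had enough counts to be tested alone.

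GCLM (ENSG00000023909.9, chromosome 1, 93885205 to 93909456, minus strand) had 257 and 194 CPM in methylparaben libraries 1 and 2, against 133 and 162 CPM in ethanol libraries 1 and 2. The lower treated library was above the higher control by a small margin. The means were 226 ± 44.3 CPM with methylparaben and 147 ± 20.6 CPM with ethanol (SD, n = 2 each), and the log2 fold change was 0.62 ± 0.20 (SE; edgeR adjusted p = 0.0363). The call did not hold without methylparaben library 1 (0.39, edgeR adjusted p = 0.189), without ethanol library 1 (0.46, edgeR adjusted p = 0.269) or without ethanol library 2 (0.78, edgeR adjusted p = 0.0550), nor with scaling by library size alone (edgeR adjusted p = 0.105). Nearly all its reads fell on GCLM-201, over 1829 countable bases of 3' UTR.

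TXNRD1, SRXN1 and NQO1 encode thioredoxin reductase 1, sulfiredoxin, which restores overoxidised peroxiredoxins, and a quinone reductase that is a classical NRF2 target. TXNRD1 (ENSG00000198431.15, chromosome 12, 104215779 to 104350305, plus strand) had 3 and 3 counts in methylparaben libraries 1 and 2, against 0 and 1 in ethanol libraries 1 and 2, a ratio of 5.01 with an exact 95% interval of 0.607 to 230.3. None of these reads lay on a coding transcript. NQO1 (ENSG00000181019.12, chromosome 16, 69706996 to 69726951, minus strand) had 0 and 1 counts with methylparaben, against 3 and 2 with ethanol, a ratio of 0.167 with an exact 95% interval of 0.00353 to 1.49. Both intervals pool the reads of a group, cover counting error only and include a ratio of 1. SRXN1 (ENSG00000271303.1, chromosome 20, 646615 to 653370, minus strand) had 0 counts in every library over 406 countable bases, the rest of its single transcript being shared with transcripts of other genes.

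Read density over the countable windows was 217 and 1647 CPM per kilobase for FTL in methylparaben libraries 1 and 2, against 55.7 and 60.1 in ethanol libraries 1 and 2. It was 50.3 and 165 with methylparaben against 8.33 and 8.48 with ethanol for HMOX1, and 113 and 85.7 with methylparaben against 58.6 and 71.4 with ethanol for GCLM. It was 20.1 and 14.4 with methylparaben against 5.52 and 5.61 with ethanol for NFE2L2, and 2.98 and 3.79 with methylparaben against 0.397 and 1.21 with ethanol for GCLC. The windows lie in different parts of the genes and partly in minor transcripts, so these densities do not rank the genes by mRNA level.

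Under 16 alternative settings the log2 fold changes of FTL, HMOX1 and NFE2L2 kept their sign and stayed past the threshold in all 16. These settings include fits with a library left out, which have 1 library in a group. Passing in those fits takes no account of that group's spread. FTL ranged from 1.93 to 4.82, HMOX1 from 2.61 to 4.28 and NFE2L2 from 1.36 to 2.03. GCLC stayed past the threshold in 14 settings and GCLM in 9. In the authors' deposited table, 6 transcripts of these genes have an adjusted p-value under 0.05, namely HMOX1-201, FTL-201, GCLM-201, NFE2L2-204, NFE2L2-209 and GCLC-209, against 2.16% of all listed transcripts and 11.1% of the 40279 with reads in the authors' deposited table.

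**Figure D4:**
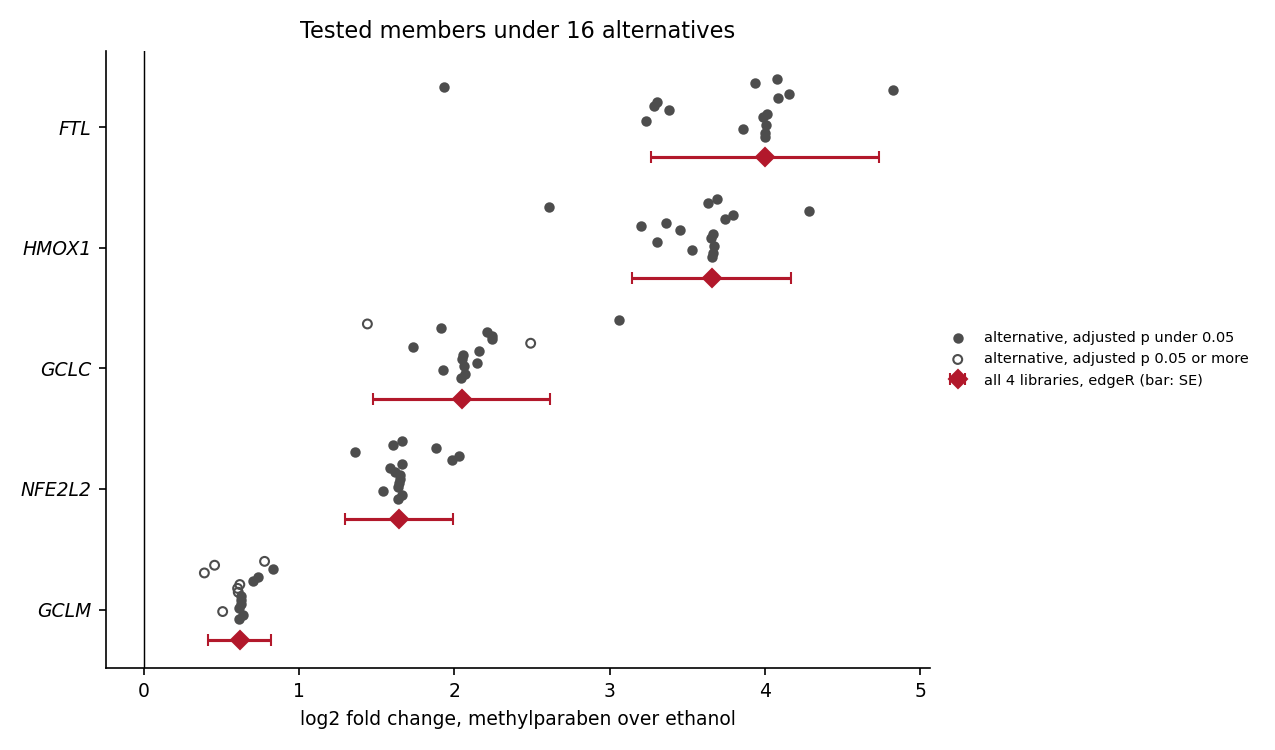
Log2 fold change, methylparaben over ethanol, of the 5 tested genes with all 4 libraries (diamond, bar: SE) and under 16 alternatives (circles, filled where the adjusted p is under 0.05). The diamonds of FTL and HMOX1 lie right of the others, while their circles spread from 1.93 to 4.82 and from 2.61 to 4.28, and GCLM has 7 open circles.

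Of 40 further NRF2 regulators and targets, which include genes that act against NRF2, 16 were tested, 4 rose and 4 fell, where 36.9% of all genes tested changed (18.5% higher and 18.4% lower). The median log2 fold change was 0.12, against 0.03 over all genes. SQSTM1, whose protein p62 binds KEAP1 in autophagy, had 28.8 and 45 CPM in methylparaben libraries against 5.10 and 3.46 CPM in ethanol libraries, at 3.08 ± 0.42 (edgeR adjusted p = 0.000655), and reached the filter on low counts only through the methylparaben libraries, where it was high. NR0B1, an orphan nuclear receptor gene, rose by 2.03 ± 0.40 on the log2 scale, and MAFG, a small MAF partner of NRF2, by 1.46 ± 0.30. ME1, malic enzyme, which makes NADPH, was at 0.53 ± 0.16 with an edgeR adjusted p of 0.0305, which lay between 0.115 and 0.194 without methylparaben library 1, ethanol library 1 or ethanol library 2. NFE2L3, an NRF2-related factor, had 5.17 and 3.66 CPM in methylparaben libraries against 25.9 and 40.3 CPM in ethanol libraries, at -2.85 ± 0.42 (edgeR adjusted p = 0.000905), and reached the filter only through the ethanol libraries, where it was high. The others that fell were GSK3B, a kinase that marks NRF2 for degradation, at -0.73 ± 0.17, CBR3, a carbonyl reductase, at -1.70 ± 0.39, and AKR1C2, an aldo-keto reductase, at -1.26 ± 0.43. Without ethanol library 2 the adjusted p (edgeR) was 0.0851 for GSK3B and 0.302 for AKR1C2. It was 0.0691 for AKR1C2 without methylparaben library 2 and 0.0595 for CBR3 without ethanol library 1. The call of AKR1C2 was also lost with DESeq2 (adjusted p = 0.112) and with limma voom (adjusted p = 0.0545), while its log2 fold change was -2.35 without retained-intron transcripts and -2.30 on coding transcripts alone. SLC7A11, the cystine transporter subunit that feeds glutathione synthesis, was read well and was at 0.21 ± 0.16 (edgeR adjusted p = 0.356), singled out after its value was seen.

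Of 29 glutathione and thioredoxin genes matched by symbol 14 were tested, 3 rose and 2 fell, where 18.5% of all genes tested rose and 18.4% fell. The median log2 fold change was 0.18, against 0.03 over all genes. CAT, catalase, was at 1.78 ± 0.38, SLC3A2, the heavy chain that pairs with SLC7A11, at 1.45 ± 0.36, and GLRX, glutaredoxin, at 1.45 ± 0.46. Retained-intron transcripts held 70.8%, 99.3% and 79.8% of the reads of these 3 genes. GLRX2, mitochondrial glutaredoxin, was at -1.23 ± 0.23, with nonsense-mediated decay transcripts holding 99.9% of its reads, and SESN3, a sestrin, at -0.95 ± 0.33. Without ethanol library 1 the adjusted p (edgeR) was 0.0782 for SLC3A2 and 0.289 for SESN3, which was also 0.0983 without methylparaben library 1, and for GLRX it lay between 0.0547 and 0.111 with any library left out. Protein-coding transcripts alone gave 1 call among 10 tested genes of this list. PRDX6, an antioxidant enzyme gene with ample reads, was at -0.08 ± 0.18 (edgeR adjusted p = 0.759), singled out after its value was seen.

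Of 30 iron and heme genes 13 were tested, 4 rose and 5 fell, where 18.5% of all genes tested rose and 18.4% fell. The median log2 fold change was -0.52, against 0.03 over all genes. ISCU, the iron-sulfur cluster scaffold, was at 2.68 ± 0.35, and retained-intron transcripts held 100% of its reads. PCBP2 and PCBP1, which carry iron to ferritin, were at 1.47 ± 0.20 and 2.48 ± 0.71, and FLVCR1, a heme exporter gene, at 0.75 ± 0.24. PCBP1 reached the filter on low counts only through the methylparaben libraries, where it was high. Among those that fell, SLC40A1, the iron exporter ferroportin, had 7.07 and 7.85 CPM in methylparaben libraries against 15.3 and 19.5 CPM in ethanol libraries, at -1.22 ± 0.41 (edgeR adjusted p = 0.0397). IREB2, iron regulatory protein 2, which represses ferritin translation when iron is scarce, was at -0.73 ± 0.20, FECH, the last enzyme of heme synthesis, at -0.90 ± 0.25, the mitochondrial iron importer SLC25A37 at -0.81 ± 0.18 and the ferric reductase CYBRD1 at -1.03 ± 0.24. Only ISCU and PCBP2 kept their call with each of the 4 libraries left out. Without methylparaben library 1 the adjusted p (edgeR) was 0.144 for FLVCR1 and 0.0899 for SLC40A1, and without methylparaben library 2 it was 0.295 for PCBP1 and 0.0871 for IREB2. Without ethanol library 1 it was 0.0813 for PCBP1, 0.252 for FLVCR1, 0.155 for FECH, 0.0646 for IREB2 and 0.0782 for SLC40A1, and without ethanol library 2 it was 0.0635 for SLC25A37, 0.0529 for CYBRD1, 0.0868 for IREB2 and 0.209 for SLC40A1.

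**Figure D5:**
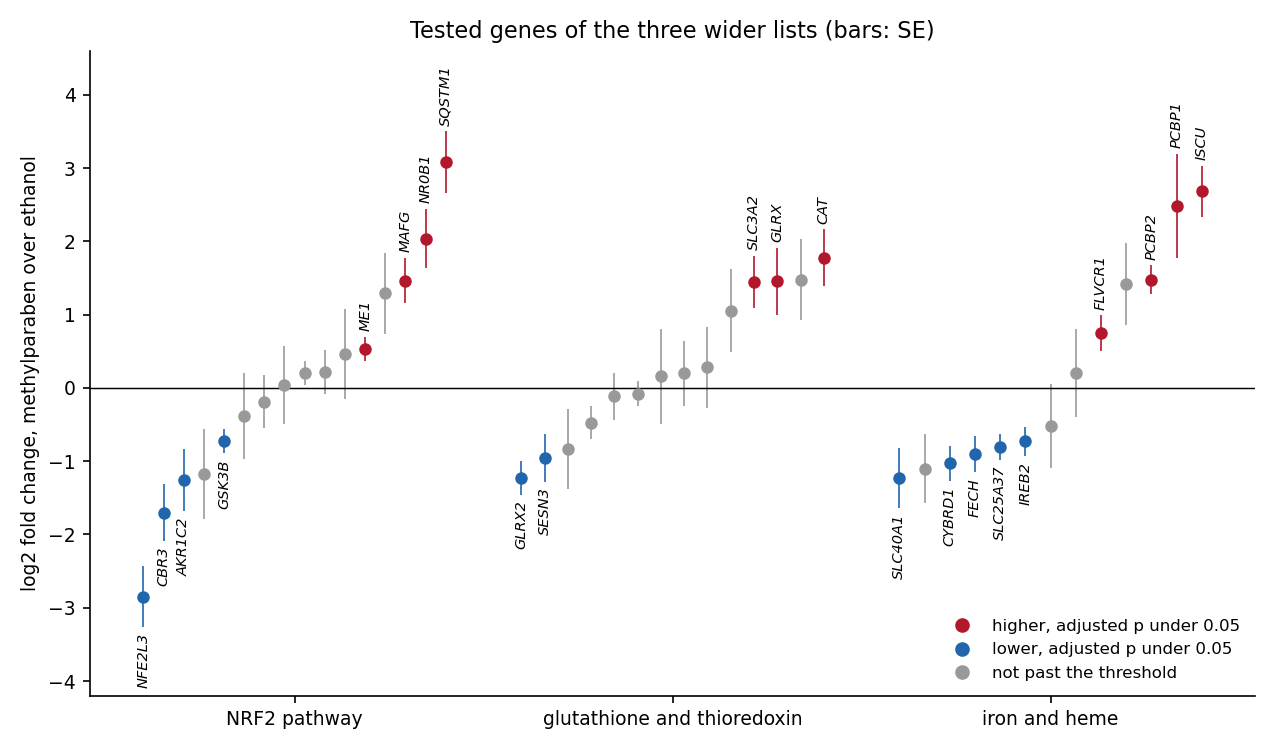
Log2 fold change, methylparaben over ethanol, of the 16, 14 and 13 tested genes of the 3 wider lists (points, bars: SE), red where higher and blue where lower at an adjusted p under 0.05 and grey otherwise. SQSTM1 is highest at 3.08 and NFE2L3 lowest at -2.85, and each list has genes on both sides of 0.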

How the data were processed

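The authors deposited raw read counts per transcript, FPKM, log2 of FPKM plus 1, and for each transcript the raw and adjusted p-value of a comparison made by the authors, whose test is not named. Per the submitters' processing notes the build is GRCh38 and the tools include DESeq2, limma and edgeR, while how reads were aligned, counted and, if multiply mapped, assigned is not given in the sources used here. All 206601 transcripts matched GENCODE release 29 by ID and coordinates, and countable bases were derived from its exons regardless of strand, so overlapping and antisense features are uncertain. The FPKM values use the full transcript length.

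Counts were summed per Ensembl gene, filtered with filterByExpr (minimum count 10, minimum total 15) and scaled by TMM. They were compared, methylparaben over ethanol, in edgeR 4.0.16 (R 4.3.3) by its two-sided quasi-likelihood test, with Benjamini-Hochberg adjustment and a threshold of 0.05. The SE is the log2 fold change over the square root of F. The fit of transcripts was alike. Alternatives were 3 other scalings, DESeq2 1.42.0, limma 3.58.1 voom and other filters (1 count, or 5 CPM in 2 libraries). Further ones were a replicate block and limma on log2(FPKM + 1) and log2(FPKM + 0.1). Others left out retained-intron transcripts, kept coding transcripts only, or left out each library in turn. A fit with a library left out has 1 library in a group, so its adjusted p takes no account of the spread in that group. Named genes were the 10 members, up to 5 called genes per list and direction by smallest p, the 3 most read ferritin copies, and the 3 genes nearest to HMOX1 and FTL. The members and lists were chosen with earlier results of these data known.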

Additional observations from a re-analysis of the deposited data

How the results depend on the processing

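Among all genes tested, 36.9% were called. The list counts below include SQSTM1, NFE2L3 and PCBP1, each of which reached the filter on low counts through a single group. The 5 called members include GCLC, which reached it only through the methylparaben libraries. They became 4 with scaling by library size alone and 3 with limma on log2(FPKM + 0.1). Their transcripts gave 4 calls, and 2 to 4 with a library left out. NRF2 pathway genes gave 8 calls, and 5 to 7 with a library left out. Glutathione and thioredoxin genes gave 5 calls, 3 with limma on log2(FPKM + 1), on log2(FPKM + 0.1) or without retained-intron transcripts, 1 with protein-coding transcripts only, and 2 to 5 with a library left out. Iron and heme genes gave 9 calls, 5 and 4 with limma at pseudocounts of 1 and 0.1, and 4 to 9 with a library left out. All genes gave 2976 calls, 1899 with limma on log2(FPKM + 0.1), 1867 of 4487 tested with protein-coding transcripts only, and 1677 to 3095 with a library left out. FTH1P3 turned to -0.42 without methylparaben replicate 1 and ranged up to 2.13 with other libraries left out. The cause was not tested.

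Same-numbered libraries deviated from their group means with a correlation of -0.150 across genes. With 2 libraries per group this cannot decide whether the numbers mark pairs. The replicate block gave 4 member calls, GCLM being at 0.0772 (edgeR adjusted p), and 2488 calls over all genes. Crossing the numbers, an alternative chosen after seeing the data, gave 5 and 3292 calls. Scaling by library size alone moved the median log2 fold change of all genes by -0.11, and GCLM was 0.59 above that median under either scaling. KEAP1, SRXN1, TXNRD1, NQO1 and FTH1 had 0 to 10 reads each, so their counts cannot show moderate differences. Whether depth, the share of countable bases or low expression set those counts was not tested.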
